A study of Mus musculus with 77 samples.

Results

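The enhancers described here are the 783 regions that a deposited table of 44002 mouse enhancers listed as present at all 4 stages of granulocyte formation and with no bound factor. They were chosen by 2 deposited annotations, the class of stages and the class of bound factors (PU.1, CEBPA, both or neither), and not by any gene or motif. They made up 1.78% of the table, 44.5% of the 1758 enhancers present at all stages and 2.99% of the 26166 enhancers with no listed factor. The other 975 enhancers of all stages were listed with PU.1 alone (538), CEBPA alone (183) or both (254), and are called bound below.

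The cells were sorted from mouse bone marrow. Cebpa knockout (KO) preGM, the precursors of granulocyte-monocyte progenitors (lineage-negative, Sca-1-, Kit+, CD150-, CD105-), were set against wild type preGM sorted the same way. The other wild type groups were LSK (lineage-negative, Sca-1+, Kit+ stem and multipotent progenitor cells), granulocyte-monocyte progenitors (GMP; lineage-negative, Sca-1-, Kit+, CD150-, FcgRII/III+) and granulocytes (Mac1+ Gr-1+). H3K27ac and H3K4me1 were profiled by ChIP-seq in all 5 groups, PU.1 in all but granulocytes, and CEBPA in wild type preGM. The sources used here do not say how the knockout was made, how old the mice were or whether animals were pooled. For each enhancer the table holds 1 signal value per group, made from 2 libraries that it does not separate. No difference below therefore has a replicate error or a test. Each count of members past 2-fold in a main comparison is set beside the same count over all 44002 enhancers. Counts under other settings and counts within subsets of members have no such count beside them. Depth is unknown, so no interval could be given.

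Enhancers are stretches of DNA that act on a gene from a distance. H3K4me1 marks them whether active or poised, and H3K27ac is added where they are active. PU.1 (encoded by Spi1) opens many enhancers of myeloid cells, and progenitors need CEBPA to form GMP and granulocytes.

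The 783 enhancers were assigned to 667 genes of 10096 and lay on 19 chromosomes in build mm9, with 89 on chromosome 11, 75 on chromosome 2 and none among the 96 enhancers on X. They were 2 to 720 bp wide with a median of 120 bp, against 126 bp for the bound enhancers of all stages and 194 bp for the whole table. Of their genes, 576 had 1 member, 71 had 2, 15 had 3 and 5 had 4. Those 5 were Myh9 (the heavy chain of nonmuscle myosin), Nfic (a nuclear factor I transcription factor), Ptpre (a tyrosine phosphatase), Tspan14 (a tetraspanin) and Zfp217 (a zinc finger protein). A member's gene had a median of 6 enhancers in the table, against 2 for all genes, and 86 of the genes had no enhancer but the member.

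Lacking a listed factor did not mean lying far from one. The nearest bound enhancer was a median of 3048 bp away, and within 1000 bp for 185 members (23.6%) and within 5000 bp for 450 (57.5%). Over all enhancers the median was 3159 bp, and for the 3303 unbound enhancers listed in LSK, preGM and GMP but not granulocytes it was 5744 bp. Another member lay within 1000 bp of 79 members (10.1%), and 72 of the 73 neighbouring pairs within 5000 bp were assigned to the same gene. Members of such pairs share their surroundings and are not independent. The 4 members of Myh9 lay at chr15:77646682-77646791, chr15:77647541-77647613, chr15:77666048-77666202 and chr15:77687863-77687972, with positions here and below as the table gives them, since it does not state whether starts count from 0 or 1.

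The annotation was first checked against the signal. The highest PU.1 signal in GMP among the 31561 enhancers not listed with PU.1 was 2.9987, and the highest member was an enhancer of Itpk1, an inositol phosphate kinase, at 2.98. The next members below it were those of Itpr2 (2.93), Mxd3 (2.92), Marveld1 (2.92) and Celsr3 (2.92). The separation was not complete from the other side, since 74 of the 792 PU.1-listed enhancers of all stages were under the highest member in GMP. The lowest of these were assigned to Mapre2 (1.20), Cyfip2 (1.28) and Hist1h3d (1.33). CEBPA signal in wild type preGM overlapped between the classes, as 336 of the 437 CEBPA-listed enhancers of all stages were under the highest member. Its medians differed, with 0.915 in CEBPA-only enhancers of all stages, 1.02 in those with both factors and 0.494 in the members. "Unbound" therefore names the authors' listing and not an absence of signal.

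PU.1 signal in the members was near the middle of the table, in which 31561 of 44002 enhancers were not listed with PU.1. The median of the members was 1.06 in LSK, 1.43 in preGM and 1.34 in GMP, at percentiles 52.9, 52.4 and 52.5 of all enhancers. No background level was available, so whether this signal reflects binding was not tested. The PU.1-only enhancers of all stages had medians of 3.78 in LSK, 5.64 in preGM and 5.10 in GMP. The 5 members with the most PU.1 in preGM were those of Sgip1 (4.91), Chrac1 (4.31), Slc43a2 (4.22), Lmo2 (4.17) and Capg (4.09). Lmo2, a bridging protein of blood stem cell transcription complexes, had 2.57 in LSK, 4.17 in preGM and 2.61 in GMP, so that its preGM value was above the GMP limit and its GMP value below it. CEBPA in wild type preGM had a median of 0.494 in the members, at percentile 43.7, and 0.534 over all enhancers. Among the 5 highest CEBPA values were those at members of Add3 (1.53), 1500002O20Rik (1.52), E430018J23Rik (1.32) and Ier5l (1.21).

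Both histone marks were higher in the members than in most of the table. Median H3K27ac was 1.33 in LSK, 1.36 in preGM, 2.10 in GMP and 2.53 in granulocytes, against 0.936, 0.908, 1.20 and 1.48 over all enhancers in the same order. Median H3K4me1 was 5.25 in LSK, 4.44 in preGM, 5.56 in GMP and 8.09 in granulocytes, at percentiles between 81.3 and 84.3. The stage class may rest on such marks, for which no criterion was found in the sources used here, so these levels are a description of what the class holds. No level of either mark separated listed from unlisted stages, however. Of the members, 46 had H3K4me1 below the median of all enhancers in LSK and 64 in granulocytes.

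The marks set the members apart from bound enhancers in different ways. In H3K4me1 the classes were close, with a granulocyte median of 8.09 in the members, 8.35 in PU.1-only and 8.67 in PU.1 and CEBPA enhancers of all stages. In H3K27ac they were not, with 2.53 in the members, 4.55 in PU.1-only enhancers and 5.25 in those with both. The same held within genes. In the 141 genes that had both a member and a bound enhancer of all stages, the member was the higher in H3K27ac in granulocytes in 32 genes (22.7%) and in H3K4me1 in 55 (39.0%). The gene medians of H3K27ac in granulocytes were 2.08 for members and 4.29 for bound enhancers.

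**Figure D1:**
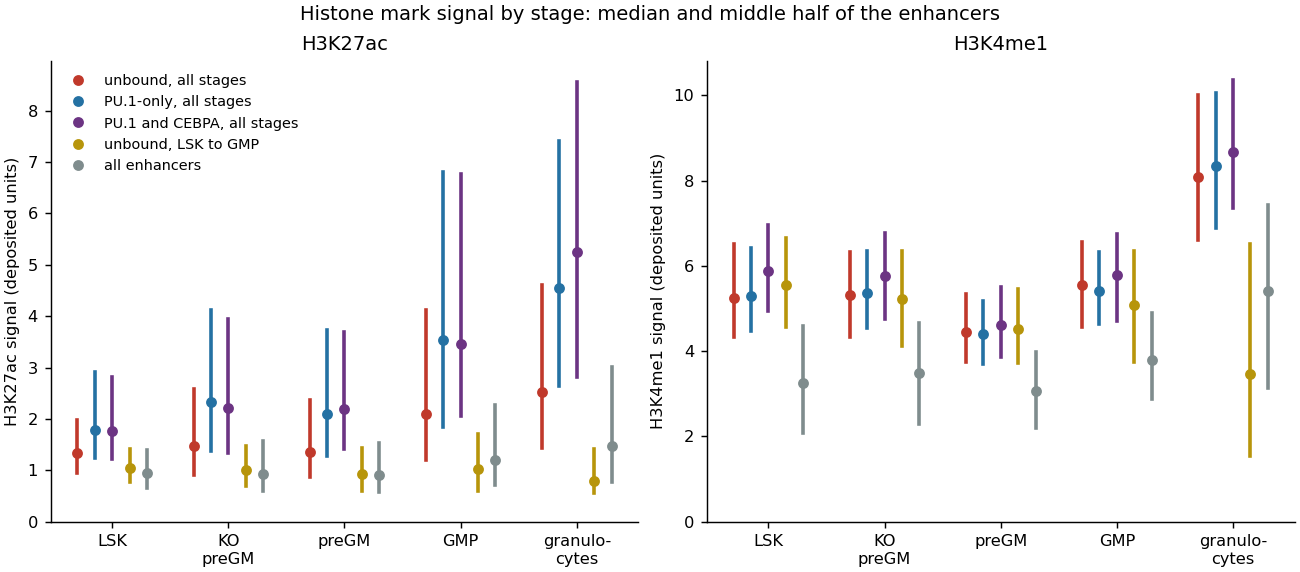
H3K27ac (left) and H3K4me1 (right) signal in LSK, KO preGM, preGM, GMP and granulocytes, with points for the median and bars for the interquartile range of each class. The unbound enhancers of all stages have a granulocyte H3K27ac median of 2.53, between 5.25 for PU.1 and CEBPA enhancers and 1.48 for all enhancers, while their H3K4me1 lies close to that of the bound classes.

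The members were not uniformly active. H3K27ac was at or above the median of all enhancers at every stage in 402 members (51.3%) and at no stage in 60 (7.66%). Over the table, 23.9% of enhancers were at or above the median at every stage and 20.2% at no stage. The 402 had median H3K27ac of 1.83 in LSK, 2.24 in preGM, 3.91 in GMP and 4.35 in granulocytes, and the 60 had 0.643, 0.543, 0.628 and 0.882. Their H3K4me1 differed less, with medians of 8.35 and 6.46 in granulocytes. PU.1 in GMP was 1.61 in the 402 and 0.808 in the 60, and CEBPA in wild type preGM 0.509 and 0.417.

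The 10 members with the highest lowest-stage H3K27ac included genes of general cell function. Rela encodes the p65 subunit of NF-kappaB, and its enhancer at chr19:5637763-5637897 had H3K27ac of 9.59 in LSK, 12.9 in preGM, 20.4 in GMP and 26.1 in granulocytes. Anapc11, a subunit of the anaphase-promoting complex, had 8.89, 11.8, 18.3 and 20.8 at chr11:120459380-120459866. In both, each stage was above the one before it. Adrm1, a ubiquitin receptor of the proteasome, had 7.47 in LSK, 10.8 in preGM, 14.7 in GMP and 19.98 in granulocytes at chr2:179906784-179906866. Cul4a, a cullin scaffold of ubiquitin ligases, had 7.69, 13.1, 23.5 and 18.7 at chr8:13105416-13105931, highest in GMP.

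Ptma, which encodes the nuclear protein prothymosin alpha, stood apart from the other 9. Its enhancer at chr1:88421947-88422102 had 10.4 in LSK, 12.8 in preGM, 29.1 in GMP, which was the highest H3K27ac of any member at any stage, and 6.22 in granulocytes. A second member assigned to Ptma, at chr1:88399457-88399640, had 1.66, 0.791, 1.91 and 0.877 at the same stages. The remaining 5 of the 10 were assigned to Zswim4, Ninj1 (a surface protein that ruptures the membrane of dying cells), Arfgap2 (a regulator of Arf GTPases), A730011L01Rik and Wfdc3, with 6.81 to 9.29 in LSK and 10.8 to 15.8 in granulocytes. Several of the 10 had little H3K4me1: Rela had 5.71 and Anapc11 4.33 in granulocytes, against the members' median of 8.09.

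Presence at all stages did not mean a constant level of acetylation. H3K27ac was highest in granulocytes in 440 members (56.2%), in GMP in 265 (33.8%), in LSK in 40 (5.11%) and in preGM in 38 (4.85%). Over all enhancers the shares were 48.3% in granulocytes, 30.8% in GMP, 11.5% in LSK and 9.48% in preGM. It was higher at each of the 3 steps in 178 (22.7%), against 15.5% of the table. The highest and lowest stage differed by under 2-fold in 359 members (45.8%) and by at least 4-fold in 47, with 54.2% and 6.36% over all enhancers. H3K4me1 was steadier, with 717 members (91.6%) under 2-fold, against 67.9% of the table, and none at 4-fold.

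Ratios between groups were taken as log2 after adding 0.7 to H3K27ac, 2 to H3K4me1 and 0.6 to PU.1, which keeps low values from giving large ratios and understates the differences at weak enhancers. Between preGM and LSK few members differed. H3K27ac had a median log2 ratio of preGM to LSK of 0.09, and 3 members were higher by 2-fold or more, beside 0.72% of all enhancers, and 1 was lower by as much, beside 0.364%. With the pseudocount divided by 4 these counts were 17 and 29, so which direction had more members turned. The 3 were Gamt (creatine synthesis; 3.34 in preGM and 0.987 in LSK), Vdac1 (a pore of the outer mitochondrial membrane; 3.50 and 1.32) and Cmtm7 (4.27 and 1.76). The 1 was Fam110a, with 0.668 in preGM and 2.28 in LSK.

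At the step to GMP, H3K27ac was higher in most members. The median log2 ratio of GMP to preGM was 0.43, against 0.29 over all enhancers. At least 2-fold higher were 99 members (12.6%), beside 9.21% of the table, and 0 were lower by that much, beside 0.411%. The share higher was 15.6% in PU.1-only enhancers of all stages and 5.30% in unbound enhancers of LSK to GMP. With the median of all enhancers subtracted, the counts were 27 and 6.

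The enhancer with the largest ratio belonged to Celsr3, a cadherin, at chr9:108734819-108734828, only 9 bp wide, with 7.14 in GMP and 0.474 in preGM. Prtn3 encodes proteinase 3 of primary neutrophil granules. Its member at chr10:79344422-79344564 had H3K27ac of 1.26 in LSK, 1.63 in preGM, 10.9 in GMP and 1.80 in granulocytes, a single high stage. Idh1, the cytosolic isocitrate dehydrogenase, had 7.34 in GMP and 1.55 in preGM, and Cdc34, a ubiquitin-conjugating enzyme, 8.11 and 1.77. The last of the 5 with the largest ratios was Ttc39c, with 8.92 and 1.83. Of the 99, 47 were also at least 2-fold higher in granulocytes than in LSK, and 17 were at least 2-fold lower in granulocytes than in GMP.

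Between granulocytes and GMP the members differed in both directions, in shares close to those of the table. The median log2 ratio of granulocytes to GMP was 0.22, against 0.14 over all enhancers. At least 2-fold higher were 101 members (12.9%), beside 14.1%, and 43 were lower by as much (5.49%), beside 6.05%. With the median subtracted, the counts were 68 and 53.

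Among the 101, the largest ratios were at Fosl2, an AP-1 factor, with 5.73 in granulocytes and 0.406 in GMP, and at 9030418K01Rik, with 21.7 and 3.27. Rab20, a GTPase of phagosome maturation, had 0.544 in LSK, 0.719 in preGM, 0.502 in GMP and 4.79 in granulocytes at chr8:11477722-11477792. Ccno, a cyclin family member, had 0.442, 0.197, 0.531 and 4.80, and 1 of the 3 members of the transcription factor gene Zfhx3 had 9.18 in granulocytes and 1.59 in GMP. Rab20 and Ccno were under the median of all enhancers at each of the first 3 stages, as were 11 of the 101 in all. H3K4me1 was present at Rab20 throughout, with 4.87 in LSK and 5.79 in granulocytes.

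Among the 43, Lrrc8c, a subunit of volume-regulated anion channels, had the smallest ratio, with 1.17 in granulocytes and 9.85 in GMP. Prtn3 and Ptma followed. Zbtb16, the zinc finger factor PLZF, had 0.506 in granulocytes and 4.43 in GMP, and Mbd3, a subunit of the NuRD complex, 0.785 and 5.49. All 5 had more H3K4me1 in granulocytes than in GMP, and at Zbtb16 it was 11.5 and 5.52. This was common, since H3K4me1 was highest in granulocytes among the wild type stages in 717 members (91.6%) and in 66.4% of all enhancers.

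Over the whole path, H3K27ac was higher in granulocytes than in LSK in 83.4% of members and 70.0% of all enhancers, with a median log2 ratio of 0.69 against 0.44 over all enhancers. At least 2-fold higher were 247 members (31.5%), beside 26.8%, and 6 were lower by as much, beside 1.12%. The share higher lay between those of the bound classes of all stages (52.0% with PU.1 alone, 47.5% with CEBPA alone and 58.3% with both) and the 9.36% of the unbound enhancers of LSK to GMP. With the median of all enhancers subtracted, the counts were 126 and 24, and the same counts over the table were not taken. Above that median lay 65.8% of members. These comparisons share their LSK and granulocyte libraries.

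The 247 reached their level by different steps. At GMP 96 were already 2-fold above LSK, 73 were 2-fold higher in granulocytes than in GMP, 5 passed both steps and 83 neither step alone. Their median H3K27ac was 1.47 in LSK, 1.84 in preGM, 3.14 in GMP and 5.29 in granulocytes. Their H3K4me1 of 5.30 in LSK and 7.93 in granulocytes was close to the medians of all members.

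Unc13d encodes Munc13-4, which primes granules for release, and its member at chr11:115939847-115939979 had H3K27ac of 2.62 in LSK, 2.68 in preGM, 4.89 in GMP and 18.8 in granulocytes. Vps28, a subunit of the ESCRT-I sorting complex, had 1.99, 2.43, 5.91 and 13.9 at chr15:76456480-76456672. Celsr3 had 1.46 in LSK and 14.9 in granulocytes, 9030418K01Rik 1.91 and 21.7, and Tmem2, a cell surface protein, 1.05 and 9.41. H3K4me1 did not follow acetylation at 9030418K01Rik, where it was 4.33 in granulocytes and 8.76 in LSK, nor at Unc13d, where it was 9.597 and 9.45.

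The 6 lower members were assigned to Dusp4 (0.677 in granulocytes and 3.27 in LSK), Fam26f (1.302 and 3.93), Lrrc8c (1.17 and 3.45), Ywhaz (1.07 and 3.01), Iqcb1 (1.2497 and 3.34) and Spry1 (0.697 and 2.11). Dusp4, a phosphatase of MAP kinases, and Spry1, a Sprouty protein, both dampen receptor signalling, and Ywhaz encodes a 14-3-3 adaptor. Their H3K4me1 was not lower: it had a median of 10.3 in granulocytes and 6.54 in LSK.

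**Figure D2:**
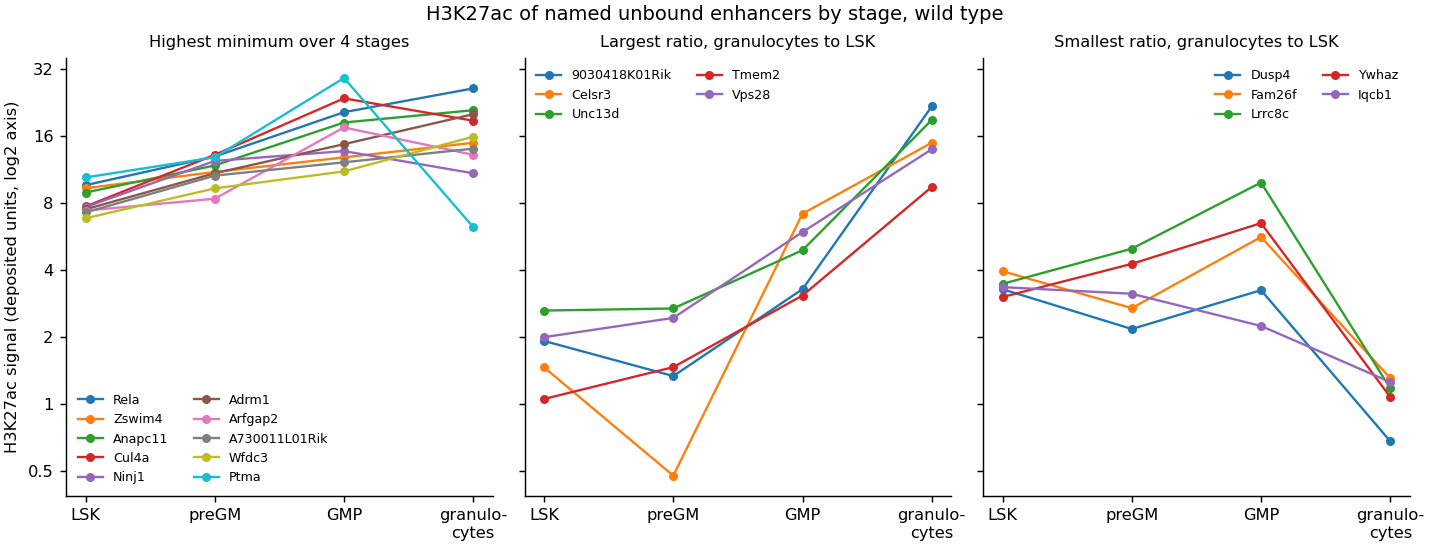
H3K27ac signal (log2 axis) by wild type stage for the 10 members with the highest lowest-stage value (left) and the 5 with the largest (middle) and smallest (right) ratio of granulocytes to LSK. Ptma is the lowest of the left panel in granulocytes at 6.22, Celsr3 is at 0.474 in preGM and 14.9 in granulocytes, and Dusp4 in the right panel is at 0.677 in granulocytes.

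H3K4me1 was higher in granulocytes than in LSK in 94.9% of members, against 73.4% of all enhancers, but seldom by 2-fold. The median log2 ratio of granulocytes to LSK was 0.49, the same as over all enhancers. At least 2-fold higher were 14 members (1.79%), beside 20.7%, and 2 were lower by as much, beside 5.83%. The PU.1-only enhancers of all stages had 1.86% higher. Since the stage class may have used this mark, these shares describe the class. With the median of all enhancers subtracted, 0 members passed 2-fold higher and 5 passed 2-fold lower. The highest ratios were at Tspan4, a tetraspanin, with 11.8 in granulocytes and 4.07 in LSK, and Fgfrl1, a receptor for fibroblast growth factors, with 10.9 and 3.90. Of the 2 lower, the member of Gas8 had 3.51 in granulocytes and 9.50 in LSK.

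**Figure D3:**
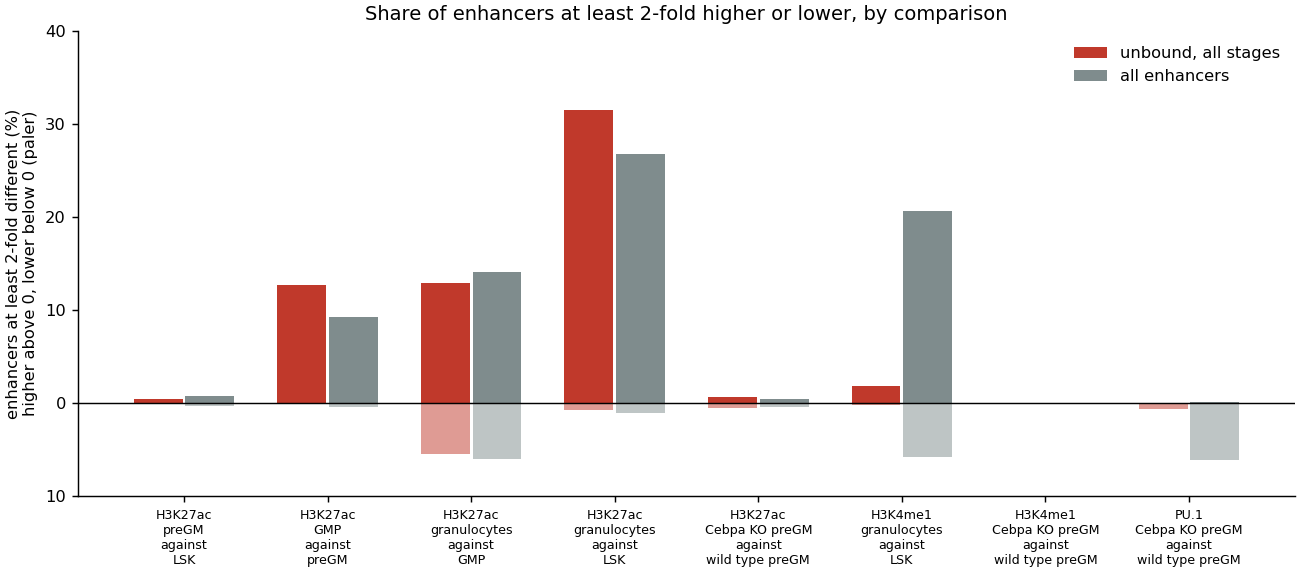
Share of the unbound enhancers of all stages (red) and of all enhancers (grey) that were at least 2-fold higher (above 0) or lower (below 0, paler) in each comparison. The members exceed the table for H3K27ac of GMP against preGM (12.6% and 9.21%) and granulocytes against LSK (31.5% and 26.8%), and fall short of it for H3K4me1 of granulocytes against LSK (1.79% and 20.7%).

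Most members fell on genes outside the gene lists, which held 0 to 11 members each. The vesicle traffic list had 6 members, and all 6 were at least 2-fold higher in H3K27ac in granulocytes than in LSK, with a median log2 ratio of 2.01. Over the 703 enhancers of that list in the table, 211 (30.0%) were higher and 5 lower, with a median of 0.60. Beside Vps28 and Rab20 they were Rab28 (12.8 in granulocytes and 1.82 in LSK), Snx20 (5.15 and 0.885), Vamp5 (6.53 and 1.67) and Rab3gap2 (5.58 and 1.28). Rab28 is a small GTPase, Snx20 a sorting nexin, Vamp5 a vesicle SNARE and Rab3gap2 a regulator of Rab GTPases. Arfgap2, named above, was not counted in this list, though its name starts with Arf, one of the prefixes planned for it. It was under 2-fold, with 13.1 in granulocytes and 7.37 in LSK.

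Myeloid transcription factors had 8 members in 5 genes, of which 4 were at least 2-fold higher in granulocytes, beside 29 of the list's 245 enhancers. Cebpb, a relative of CEBPA that acts in emergency granulopoiesis, had H3K27ac of 2.91 in LSK, 4.13 in preGM, 5.02 in GMP and 12.8 in granulocytes at chr2:167487005-167487223. The 3 members of Runx1, a core factor of blood formation, differed: the one at chr16:92697294-92697377 had 4.56 in granulocytes and 1.32 in LSK, and the others had 1.46 and 1.27, and 2.70 and 2.90. Nfe2 had 2.84 in granulocytes and 0.959 in LSK at 1 of its 2 members. Myb, a progenitor factor, had 2.42 and 0.706, and Egr1 3.31 and 2.27.

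Translation genes had 4 members, of which 3 were at least 2-fold higher, beside 54 of 159 in the table. They were Eif4ebp1, an inhibitor of translation initiation (7.70 in granulocytes and 2.54 in LSK), Eif4e3, a cap-binding protein (8.19 and 3.31), and Eif2c4, an Argonaute under its older name (4.39 and 1.33). Ribosomal protein genes had 2 members, Rpl18 with 12.1 in granulocytes and 2.27 in LSK, and Rps29 with 5.06 and 2.26. Actin cytoskeleton genes had 9, of which 2 were higher, beside 31.0% of that list's 390 enhancers. Pan-leukocyte genes had 11, of which 3 were higher, beside 30.8% of 523.

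Of the 7 members of chromatin genes, 1 was at least 2-fold higher, at the histone deacetylase gene Hdac7, with 3.89 in granulocytes and 1.54 in LSK, beside 27.1% of that list's 361 enhancers. Of 3 cell cycle members none passed 2-fold in either direction, beside 35 higher (19.6%) and 5 lower of that list's 179. The more acetylated one of Ccne1, the cyclin E gene, had 2.08 in LSK, 3.67 in preGM, 7.38 in GMP and 2.85 in granulocytes. Stem cell genes had 3 members, of Lmo2 and Erg, none past 2-fold in either direction. Of that list's 255 enhancers, 13 (5.10%) were higher and 40 lower. The median log2 ratio of granulocytes to LSK was -0.37 over the list and 0.59 in the 3 members. Primary granule genes had Prtn3 and Srgn, the monocyte list had Maf, the respiratory chain list Atp5d and the splicing list Ddx19a. Secondary granule genes (148 enhancers in the table), cytokine receptors (210) and proteasome subunits with Psma, Psmb, Psmc or Psmd names (88) had no member. Adrm1, named above, belongs to the proteasome but not to that list. Members made up 1.78% of all enhancers, so these lists would hold few.

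Marker genes were also counted over the whole table. Of 73 enhancers of LSK markers 0 were at least 2-fold higher and 15 lower in H3K27ac in granulocytes than in LSK, and of 80 enhancers of granulocyte markers 46 were higher and 0 lower. Mast cell, basophil and eosinophil markers had 13 of 32 higher (40.6%, beside 26.8% of all enhancers) and 4 lower. The part of such cells in the results was not tested. Erythroid (15 enhancers in the table), megakaryocyte (22), B cell (11) and T and NK cell (20) markers had no member. Nor had those of mast cells, basophils and eosinophils (32), of LSK (73) or of granulocytes (80). The dendritic list (38) had 1, Zbtb46, with 0.68 in granulocytes and 0.98 in LSK, and the GMP list (39) had 1, Prtn3. Members were 1.78% of all enhancers. The deletion itself was not checked, because expression was not analysed here.

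In Cebpa KO preGM H3K27ac of the members was close to wild type. Median H3K27ac was 1.48 in KO preGM and 1.36 in wild type preGM, and the median log2 ratio of 0.09 lay near the 0.05 of all enhancers. At least 2-fold higher in KO were 5 members (0.639%), beside 0.441%, and 4 were lower by as much (0.511%), beside 0.47%. Both shares were near those of the table. With the pseudocount divided by 4 the counts were 43 and 18.

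The 5 higher members were under the members' median of 1.36 in wild type preGM. Rxra, the retinoid X receptor alpha, had 2.05 in KO and 0.403 in wild type preGM at chr2:27532623-27533028, and Zbtb16 had 2.69 and 0.807. Map4k4, a kinase, had 1.54 and 0.312, Aff3 2.25 and 0.703, and Hs6st1, a heparan sulfate sulfotransferase, 2.90 and 1.07. In wild type LSK the same members had 0.743 (Rxra), 1.12 (Zbtb16), 1.15 (Map4k4), 1.13 (Aff3) and 1.38 (Hs6st1).

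Of the 4 lower members, Gamt had 1.02 in KO and 3.34 in wild type preGM at chr10:79723762-79723821, where LSK had 0.987. It was also the member with the largest ratio of wild type preGM to LSK, and both ratios use the same wild type preGM value. Tpcn1, an ion channel of endolysosomes, had 0.550 in KO and 1.95 in wild type preGM. Ppp1r3b, which targets a phosphatase to glycogen, had 0.234 and 1.21, and a member of Stk10, a kinase, 0.323 and 1.37. CEBPA in wild type preGM at these 4 was 0.4996, 0.657, 0.595 and 0.655, against 0.268 to 0.665 at the 5 higher ones and a median of 0.494 over all members.

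H3K4me1 was slightly higher in KO preGM in 88.8% of members and 72.0% of all enhancers, with medians of 5.32 in KO and 4.44 in wild type preGM and a log2 ratio of 0.17, against 0.10 over all enhancers. No member was at least 2-fold higher, beside 0%, and none lower, beside 0.00909%. In the bound classes of all stages the median ratio was between 0.20 and 0.24.

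PU.1 in KO preGM was lower in most members, as it was in the table. The medians were 1.08 in KO and 1.43 in wild type preGM, with a log2 ratio of -0.24 against -0.27 over all enhancers. No member was at least 2-fold higher, beside 0.0955%, and 5 were lower by 2-fold or more (0.639%), beside 6.15%. With the median of all enhancers subtracted the counts were 4 and 0. The 5 were C1qtnf9 (0.544 in KO and 1.90 in wild type preGM), Taok3 (1.16 and 3.17), Pomc (1.38 and 3.52), 8430427H17Rik (1.10 and 2.88) and Tulp4 (1.40 and 3.48). H3K27ac was lower in KO at 1 of these 5, Tulp4, with 3.01 in KO and 3.76 in wild type preGM. At the other 4 it was higher in KO, with 2.87 and 2.15 at C1qtnf9, 2.10 and 1.27 at Taok3, 4.77 and 4.38 at Pomc and 1.76 and 0.626 at 8430427H17Rik. H3K27ac was higher in KO in 59.5% of all members and 54.8% of all enhancers, so these 5 are too few to set apart.

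**Figure D4:**
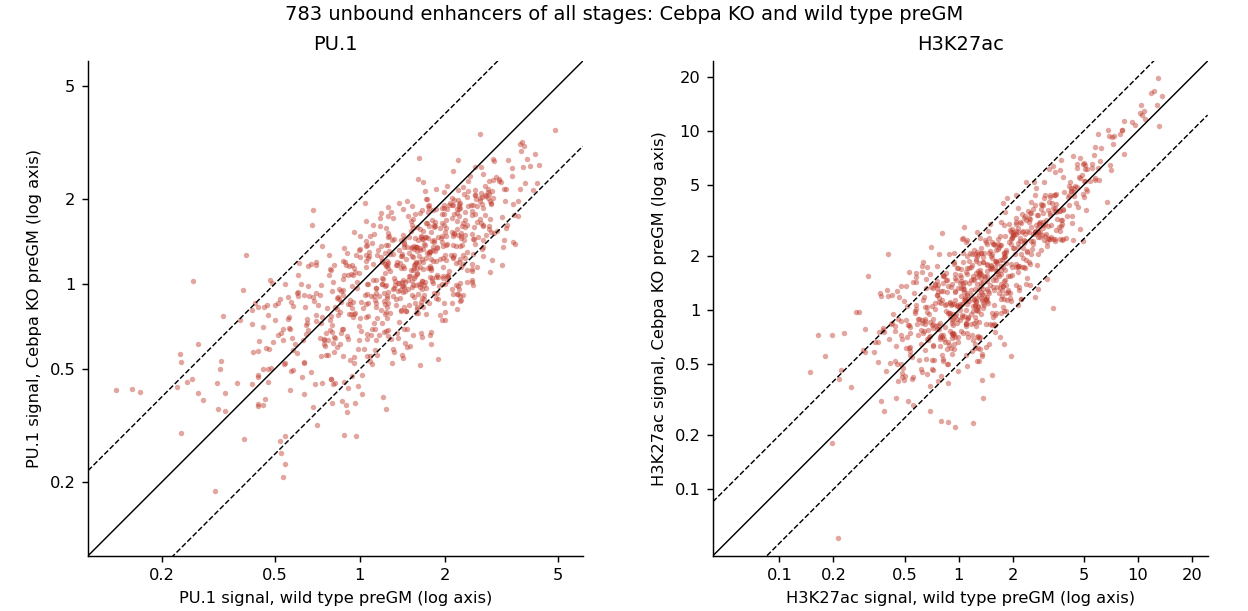
PU.1 (left) and H3K27ac (right) signal of the 783 members in Cebpa KO preGM (y axis) and wild type preGM (x axis), both on log axes, with a line of equality and dashed lines at a 2-fold ratio of the signals without a pseudocount. Most PU.1 points at higher signal lie under the line of equality, and the H3K27ac points lie on both sides of it.

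The PU.1 ratio went with the PU.1 level. Members with wild type preGM PU.1 under 1 had a median log2 ratio of KO to wild type of 0.06 (225 members), those from 1 to 2 had -0.28 (361), those from 2 to 3 had -0.44 (160) and those from 3 to 5 had -0.58 (37). PU.1-only enhancers of all stages had -0.43 from 2 to 3 and -0.59 from 3 to 5, and all enhancers -0.46 and -0.59. The wild type preGM value enters both the bin and the ratio. With bins by PU.1 in LSK, which is not in the ratio, members had -0.13 from 0.5 to 1, -0.30 from 1 to 1.5, -0.39 from 1.5 to 2 and -0.37 from 2 to 3. All enhancers had -0.10, -0.29, -0.41 and -0.54 in the same bins. PU.1-only enhancers of all stages had -0.44 from 1 to 1.5, -0.55 from 1.5 to 2 and -0.59 from 2 to 3. In these bins the ratio was further below 0 in PU.1-only enhancers than in members, but their wild type preGM PU.1, which enters the ratio, was also higher. Its medians in PU.1-only enhancers and members were 2.63 and 1.60 from 1 to 1.5, 2.91 and 2.21 from 1.5 to 2, and 3.82 and 2.70 from 2 to 3. The classes were themselves listed by PU.1, so a difference between them in KO was not tested.

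Acetylation among the members was higher where PU.1 was higher. The members were split into 4 groups of 195 or 196 by PU.1 in GMP. In the group with the most PU.1 (1.88 to 2.98), median H3K27ac was 1.77 in LSK, 2.18 in preGM, 3.21 in GMP and 3.69 in granulocytes. In the group with the least (0.164 to 0.845), it was 0.988, 0.940, 1.27 and 1.83. At least 2-fold higher in granulocytes than in LSK were 74 members of the group with the most PU.1 and 38 of that with the least, of 196 in each. Median H3K4me1 in granulocytes was 8.63 in the group with the most PU.1 and 7.30 in that with the least.

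**Figure D5:**
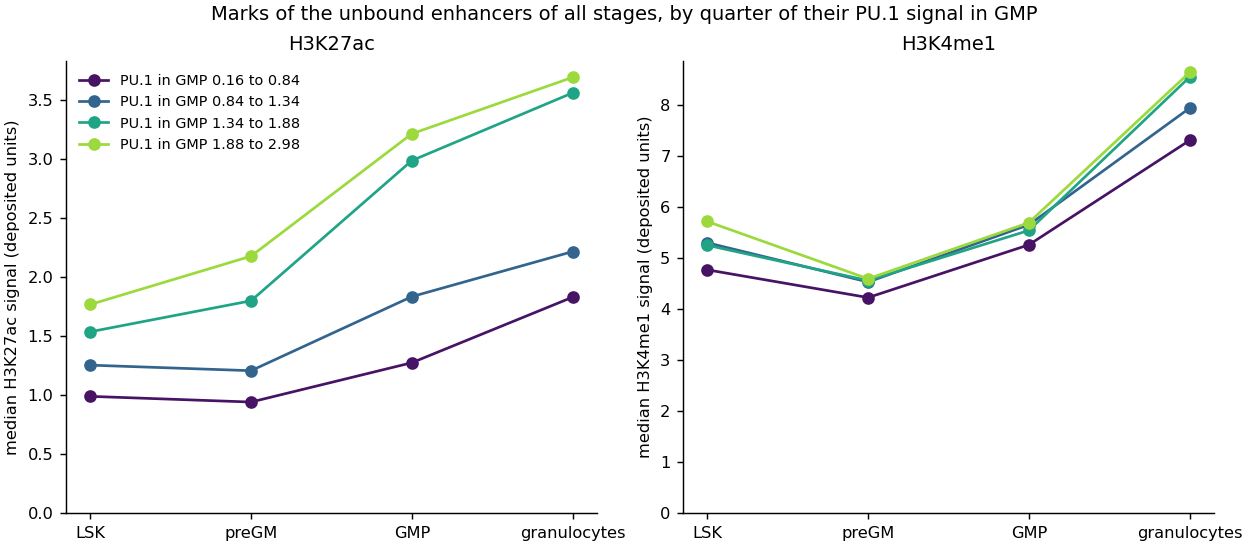
Median H3K27ac (left) and H3K4me1 (right) signal by wild type stage in 4 groups of members split by their PU.1 signal in GMP. H3K27ac in granulocytes is 3.69 and 3.56 in the 2 groups with most PU.1 and 2.21 and 1.83 in the others, while the H3K4me1 lines lie close together.

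CEBPA gave a weaker order. From the group with the most CEBPA in wild type preGM (0.646 to 1.61) to that with the least (0.0544 to 0.361), median H3K27ac in granulocytes was 2.71, 2.89, 2.59 and 2.15. H3K4me1 in LSK was 5.99 in the group with the most CEBPA and 4.64 in that with the least. The H3K27ac ratio of KO to wild type preGM was 0.13 in the group with the most CEBPA and 0.04 in that with the least, so it was not lower where CEBPA was higher.

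Members were also compared by whether a bound enhancer lay close by. Of the 450 members with one within 5000 bp, 138 (30.7%) were at least 2-fold higher in H3K27ac in granulocytes than in LSK, and of the 333 without, 109 (32.7%). For GMP against preGM the share higher was 10.4% near a bound enhancer and 15.6% without one, and for granulocytes against GMP it was 14.9% near one and 10.2% without. Levels were lower near a bound enhancer, with H3K27ac medians of 1.79 and 2.74 in GMP and 2.42 and 2.84 in granulocytes. PU.1 in GMP was 1.17 in members near a bound enhancer and 1.496 in the others. With a limit of 1000 bp the groups were closer. H3K27ac medians were then 1.91 near one and 2.13 without in GMP, and 2.51 and 2.53 in granulocytes. PU.1 in GMP was 1.27 and 1.36.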

How the data were processed

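The deposited table gives, for each enhancer, a position in mm9, an assigned gene, stage and factor classes, and signal columns. The signal values are the authors' pooled values per group, and the sources used here do not give how libraries were pooled or scaled. They are never negative and were read as linear. Bowtie2, MACS2 and bedtools were used, per the submitters' processing notes. The 15 columns used match groups of 2 libraries, 30 of the 77 listed samples. A further 17 columns of values were left out: 6 of expression, which could not be matched to the listed RNA libraries, 6 undescribed and 5 with no listed sample. Expression of the members' genes, planned as a result, was therefore not analysed here.

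Each comparison was a log2 ratio with a pseudocount, set to the 25th percentile over an assay's columns, to 1 significant digit. Ratios of at least 2-fold were counted in the members and in all enhancers, with no test, as there are no replicate values. The medians over all enhancers, given beside each comparison, show the shift that another scaling would remove. The steps were run on simulated data with planted changes larger than 2-fold, so changes near 2-fold were not tried.

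The members and gene lists were chosen with earlier results of these data known. Named were the 10 members with the highest lowest-stage H3K27ac, up to 5 per direction and comparison whose higher value reached the median of all enhancers, up to 4 genes per list, the 5 with the most PU.1 and CEBPA, and the 5 genes with the most members. Members close to the class limits, Spry1, Myb, Snx20, Rab20 (as a vesicle gene) and members shown beside a named one of the same gene were added after their values were seen. The values of 1 member that the rule names are not reported here. Of the 667 gene names, 617 matched a current symbol. Analyses used Python 3.11.15, pandas 2.3.3 and NumPy 2.4.6.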

Additional observations from a re-analysis of the deposited data

How the results depend on the processing

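Of 65 values under another setting, 32 stayed within 1.5 times of the reported one. Keeping only members at or above the median of all enhancers in the higher group moved no count by more than that. The other settings moved small counts and also larger ones. As reported, 99 members were at least 2-fold higher in H3K27ac for GMP against preGM, 101 for granulocytes against GMP and 247 for granulocytes against LSK. In what follows, counts are of members at least 2-fold higher and then lower. With the pseudocount divided by 4, H3K27ac counts were 17 and 29 for preGM against LSK, 181 and 9 for GMP against preGM and 153 higher for granulocytes against GMP. They were 17 lower for granulocytes against LSK and 43 and 18 for KO against wild type preGM. H3K4me1 had 68 higher for granulocytes against LSK, and PU.1 had 5 and 58 for KO against wild type preGM. With the pseudocount multiplied by 4, H3K27ac counts were 0 and 0 for preGM against LSK, 17 higher for GMP against preGM, 19 and 12 for granulocytes against GMP, 100 and 0 for granulocytes against LSK and 0 and 0 for KO against wild type preGM. H3K4me1 had 0 and 0 for granulocytes against LSK and PU.1 0 lower in KO. With the median log2 ratio of all enhancers subtracted, H3K27ac counts were 2 lower for preGM against LSK, 27 and 6 for GMP against preGM and 126 and 24 for granulocytes against LSK. H3K4me1 had 0 and 5 for granulocytes against LSK and PU.1 4 and 0 for KO against wild type preGM. Counting as unbound only the 157 members with PU.1 at every stage and CEBPA under the median of all enhancers gave a share of 8.93% of the enhancers of all stages, against 44.5%. The planned counts of expression were not run, for want of matched columns. No paired analysis was possible because the table pools the libraries, and leaving out a library was not possible for the same reason.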
